A study of Mus musculus with 8 samples.

Results

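The genes described here encode acid hydrolases of the lysosome, the membrane proteins of its wall and the proton pump that acidifies it, in mouse macrophages loaded with acetylated low-density lipoprotein (Ac-LDL). Members were taken by gene symbol from the array's annotation, as a list of named genes plus every symbol that begins with Atp6v or Atp6ap, and the cathepsins were left out. This gave 51 of 30789 gene symbols on the array and 100 of 45281 probes. All 8 RNA samples came from thioglycollate-elicited peritoneal macrophages of C57/BL6 mice aged 8 weeks, cells that an irritant broth draws into the peritoneal cavity. For 24 h, 4 samples received Ac-LDL at 120 μg/ml and the 4 control samples a mock treatment, with no genetic change named for either group. The samples are labelled as biological replicates, and whether cells of several mice were pooled is not given in the sources used here. RNA was hybridised to Illumina bead arrays, which report the mean intensity of many beads per probe, with replicates 1 and 2 of both groups on one slide and replicates 3 and 4 on another.

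Lysosomes are the acidic organelles in which macrophages degrade what they engulf, and modified lipoproteins reach them after uptake by scavenger receptors. Glycosidases, sulfatases, lipid hydrolases and peptidases take apart sugar chains, sulfated glycans, sphingolipids and proteins, and most of them work only at the low pH that the vacuolar proton pump (V-ATPase) maintains. In that pump the V1 sector in the cytosol hydrolyses ATP and the V0 sector in the membrane carries protons into the lumen. Heavily glycosylated proteins such as LAMP1 and LAMP2 line the inner face of the membrane. The transcription factor TFEB is known to raise many of these genes together by binding a palindromic promoter motif.

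Levels are normalized log2 intensities of single probes, and differences are Ac-LDL minus control on that log2 scale, which understates the change of dim probes because a constant of 16 was added before the log. Probes entered the test when 4 or more of the 8 arrays gave a detection p no higher than 0.05. Of the 51 members, 45 genes with 74 probes were tested. The remaining 6 genes were *Fuca1* (an α-fucosidase), detected on 2 arrays, and the pump subunits *Atp6v0a4*, *Atp6v0d2*, *Atp6v1c2*, *Atp6v1e2* and *Atp6v1g3*, each detected on at most 1 array. Between 36.8% and 38.5% of all probes were detected per array, with 43 or 44 beads behind the median probe. Among markers of other cell types that the peritoneum could hold, the summed intensity of the neutrophil list was 569.8 to 622.5 in the controls and 672.6 to 740.8 in the Ac-LDL samples. Only *Ltf* and *S100a8* of its 5 genes on the array were tested, while *S100a9*, *Camp* and *Ngp* were detected on 0 arrays, and none of the list was called. The macrophage markers summed to between 72870 and 87940 in the controls and between 76320 and 87900 with Ac-LDL, with 10 of 11 tested and only *Mertk* called, with the replicate block, at 0.56 and an adjusted p of 0.0364. B cell markers summed to 484.1 to 641.1 and 562.5 to 689, fibroblast and mesothelial markers to 16810 to 22980 and 18630 to 20830, and T cell, eosinophil and mast cell markers to at most 61.41 on any array. The part of the neutrophil signal, of the larger fibroblast and mesothelial signal or of any other cell type in the results below was not tested. Fewer cells of a type and less RNA per cell cannot be told apart.

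The comparison asked whether loading with Ac-LDL shifts the transcripts of the lysosome's enzymes, wall and pump. The hyaluronan-degrading glycosidase *Hyal1* was 1.51-fold higher with Ac-LDL, with a 95% interval of 1.26 to 1.80, and the asparagine-specific peptidase *Lgmn* was 1.28-fold higher, with an interval of 1.06 to 1.55. For the other 43 of 45 genes the absolute log2 difference was below 0.25, and the interval spanned 0 in the fit without a block. Over the 24 hydrolases and activator proteins 18 were higher and 6 lower, with a median difference of 0.12, and over the 17 pump genes 6 were higher and 11 lower, with a median of -0.05. The median over all 17122 tested probes was 0.00, with quartiles of -0.09 and 0.09.

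No member probe was called at a limma adjusted p under 0.05, where 0.0409% of all tested probes were called, and 4 of the 74 had an unadjusted p under 0.05, which is 5.41% beside 5.2% of all probes. By the methods' t-test 8 member probes, 10.8% beside 6.07% of all probes, had an unadjusted p under 0.05 and none was called after Benjamini-Hochberg adjustment. With the replicate number as a block 0.444% of all probes were called, among them *Hyal1* as the only member. With the slide as a block 0.321% were called and none was a member. The unadjusted p was under 0.05 for 7 member probes in either blocked fit, 9.46% beside 13.8% of all probes when replicates were blocked and 12.1% when slides were. Counting each gene by its brightest tested probe, *Hyal1*, *Lgmn* and *Galc* were under 0.05 in both fits. *Atp6v0a1* joined them in the first and *Atp6v1a* in the second, 4 genes in each beside 2 without a block. The other probes under 0.05 were dimmer ones, of *Gusb* and *Galns* in both fits and of *Manba* with the slide block. For 40 of the 45 genes, and for 62 member probes, the 95% interval lay within a 1.5-fold change in either direction, which held for 86% of all tested probes. The exceptions were *Hyal1*, *Lgmn*, *Gla*, *Gm2a* and *Tpp1*, whose intervals reached past that limit on at least one side.

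**Figure D1:**
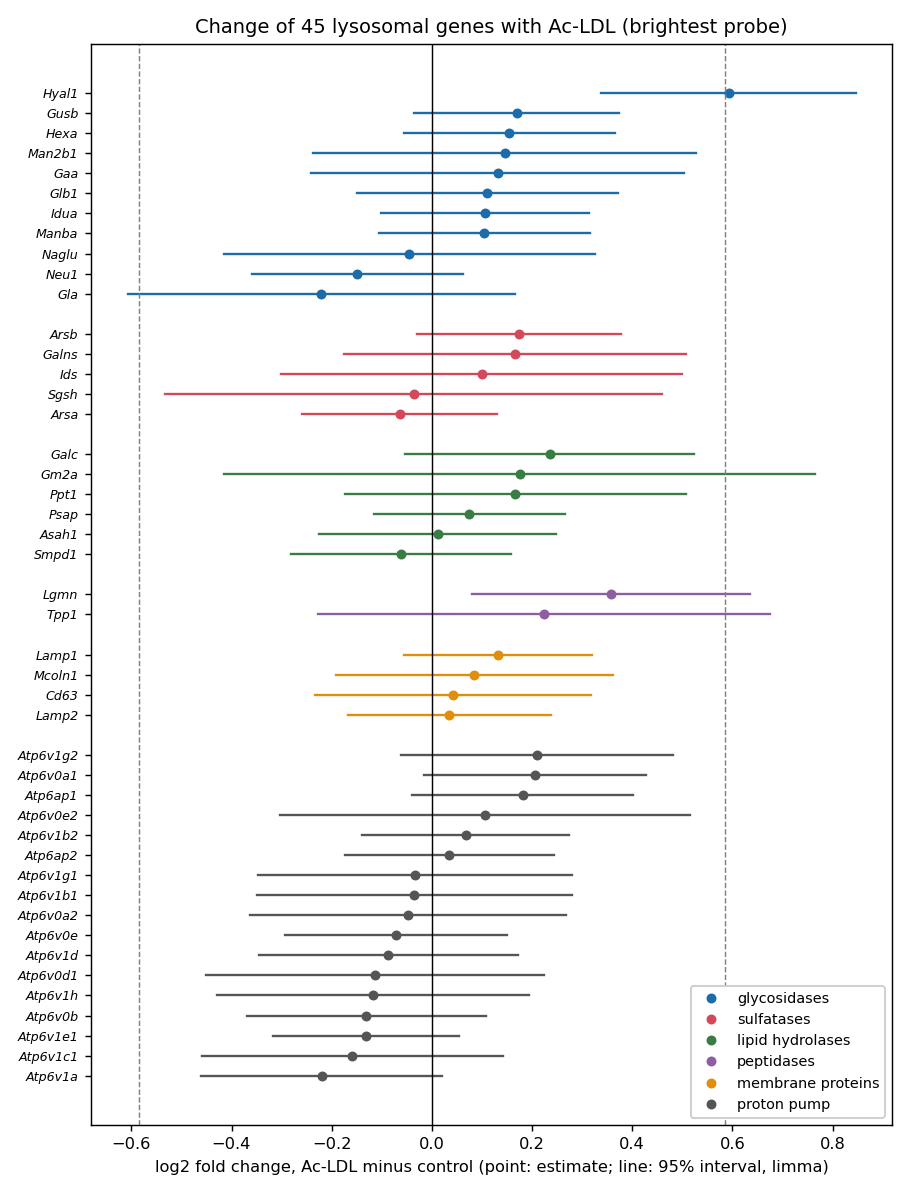
Log2 fold change of Ac-LDL over control (x axis) for each of the 45 tested genes (y axis), by the brightest tested probe, with lines for the 95% interval of limma's model and dashed lines at a 1.5-fold change. The intervals of *Hyal1* and *Lgmn* lie above 0 and those of the other 43 genes span it in this fit without a block, while the pump genes lie on both sides, 6 above and 11 below. With median scaling in place of quantile normalization the glycosidase and membrane protein medians fall to -0.01 and -0.04, beside -0.09 for all probes.

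The 5 probes whose groups did not overlap were those of *Hyal1*, *Lgmn*, *Lamp1* and one *Galns* probe, higher with Ac-LDL, and *Atp6v1e1*, lower. Over all tested probes 2.11% were higher and 1.68% were lower without overlap, beside 4 and 1 of the 74 member probes. In all 4 same-numbered pairs of arrays 13 member probes were higher and 4 lower, which is 17.6% and 5.41%, beside 11.5% and 10.3% of all probes. For a single probe the exact two-sided permutation test over 70 assignments can reach no p below 0.0286.

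Among the glycosidases, which remove sugars from glycoproteins, glycolipids and glycosaminoglycans, *Hyal1* stood first. Its tested probe, ILMN_2644375, read 6.98, 7.31, 7.24 and 7.02 in control samples 1 to 4 and 7.84, 7.79, 7.77 and 7.52 in Ac-LDL samples 1 to 4. All 4 Ac-LDL samples lay above all 4 controls, and within each slide the gap between the groups was wider than the spread of either. Over both slides together the gap, from 7.31 in control 2 to 7.52 in Ac-LDL sample 4, was narrower than the spread of either group. The log2 difference was 0.59 with a standard error of 0.11, and the limma adjusted p was 0.175 without a block, 0.0415 when replicates were blocked and 0.0547 when slides were. *Hyal1* was picked by the study on these same samples, so that its direction here is not independent evidence. Within slide 1 the difference was 0.67 and within slide 2 it was 0.51. A second *Hyal1* probe, ILMN_1253049, was detected on 0 of 8 arrays. The deposited annotation gives no genome position for the tested probe, whose central 30 of 50 bases identify it.

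Hyal1 ILMN_2644375, bases 11 to 40: tcacacaagctacccagccactgagggttg

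*Gusb*, which encodes β-glucuronidase, was measured by 3 probes spread along the transcript, at positions 2340, 1417 and 440 from its 5′ end. The brightest, ILMN_2855334, read 12.73, 12.81, 12.98 and 12.87 in the controls and 13.12, 12.98, 12.96 and 13.01 with Ac-LDL. The middle probe, ILMN_2768026, read 10.01, 10.10, 10.51 and 10.11 against 10.54, 10.30, 10.84 and 10.40. In both the groups overlapped through control sample 3, and every Ac-LDL sample of the middle probe lay above the other 3 controls. The differences of the 3 probes were 0.17, 0.33 and 0.27, with standard errors of 0.09, 0.15 and 0.18. Without a block only the middle probe had an unadjusted p under 0.05, at 0.0463, and its limma adjusted p was 0.943. With replicates blocked the unadjusted limma p was 0.00401 for the middle probe and 0.0298 for the third, at adjusted values of 0.160 and 0.313. With slides blocked the unadjusted values were 0.0215 and 0.101.

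*Gla*, the α-galactosidase that trims globotriaosylceramide, had the lowest difference of the glycosidases, at -0.22 with a standard error of 0.17. It read 7.10, 7.19, 6.49 and 6.56 in the controls and 6.62, 6.87, 6.47 and 6.50 in the Ac-LDL samples. The groups overlapped, and the controls of slide 1 stood apart from the rest of the samples. The difference was accordingly -0.40 within slide 1 and -0.04 within slide 2. The sialidase *Neu1* read 11.48, 11.47, 11.38 and 11.52 against 11.22, 11.32, 11.23 and 11.49, a difference of -0.15. Only Ac-LDL sample 4 reached the range of the controls. *Hexa*, the α subunit of β-hexosaminidase, differed by 0.15, and 5 further glycosidases lay between 0.10 and 0.15, namely *Man2b1* and *Manba* (mannosidases), *Gaa* (acid α-glucosidase), *Glb1* (β-galactosidase) and *Idua* (α-iduronidase). *Naglu*, which acts on heparan sulfate, differed by -0.04. The median over the 11 tested glycosidases was 0.11, with 8 genes higher and 3 lower. It was 0.15 within slide 1 and 0.03 within slide 2, and -0.01 with median scaling in place of quantile normalization, which moved the median of all probes to -0.09.

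The 5 sulfatases, which take sulfate off glycosaminoglycans and sulfatide, had a median difference of 0.10, with 3 genes higher and 2 lower, and that median was 0.28 on slide 1 and -0.12 on slide 2. It turned to -0.01 without control replicate 1, to -0.02 without control replicate 2 and to -0.02 with median scaling, and was 0.22 without control replicate 4. *Arsb* (arylsulfatase B) read 8.64, 8.69, 8.74 and 8.89 in the controls and 8.95, 8.95, 8.82 and 8.95 with Ac-LDL. A single control, sample 4, overlapped the Ac-LDL range, and the difference was 0.17 with a standard error of 0.09. *Arsa* (arylsulfatase A) read 8.98, 8.85, 8.95 and 8.94 against 8.85, 8.96, 8.76 and 8.90, with the groups overlapping and a difference of -0.06. *Ids* (iduronate-2-sulfatase) and *Sgsh* (sulfamidase) differed by 0.10 and -0.04.

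*Galns*, the sulfatase of keratan sulfate and chondroitin 6-sulfate, was read by a pair of probes that are nearly the same sequence. They share 49 of 50 bases when aligned with a single gap, and differ in the length of one run of guanines, shown in capitals. ILMN_2998230 is annotated at chr8:125102278-125102327 on the minus strand, in a build that the annotation does not name.

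Galns ILMN_2771201, bases 18 to 47: aaaggaacaggaGGGGGttagctctggtag

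Galns ILMN_2998230, bases 17 to 46: aaaggaacaggaGGGGGGttagctctggta

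The probe with 5 guanines, ILMN_2771201, read 6.43, 6.73, 7.06 and 7.12 in the controls and 6.89, 7.06, 6.92 and 7.14 with Ac-LDL. The probe with 6 guanines, ILMN_2998230, read 5.18, 5.03, 5.39 and 5.31 against 5.56, 5.90, 5.54 and 5.58. Its groups did not overlap, whereas those of the first probe did, so that sequences 1 base apart gave differences of 0.17 and 0.42 with standard errors of 0.15 and 0.12. The limma adjusted p of the second was 0.653, at an unadjusted p of 0.00538. The first probe differed by 0.40 within slide 1 and by -0.07 within slide 2, and the second by 0.62 and 0.21.

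The lipid hydrolases and their activator proteins degrade sphingolipids and the fatty acyl groups of proteins. Their median difference was 0.12, with 5 genes higher and 1 lower, and the median was 0.02 without control replicate 1. No gene of the class had an unadjusted p under 0.05 without a block. *Galc* (galactosylceramidase) read 6.97, 6.95, 7.44 and 7.18 in the controls and 7.32, 7.32, 7.58 and 7.27 with Ac-LDL. Control sample 3 lay inside the Ac-LDL range and the other 3 below it, and the difference was 0.23 with a standard error of 0.13. Its unadjusted p was 0.0242 when replicates were blocked and 0.0423 when slides were, at limma adjusted p values of 0.294 and 0.391. A dimmer tested *Galc* probe, ILMN_1252690, differed by 0.01 with a standard error of 0.12. The unadjusted limma p of that probe was 0.938 when replicates were blocked and 0.934 when slides were. *Smpd1* (acid sphingomyelinase), the single gene of the class below 0, read 9.91, 9.98, 9.71 and 9.71 against 9.79, 9.83, 9.65 and 9.79. Its difference of -0.06 lay inside the spread of the controls, and its 95% interval ran from 0.823-fold to 1.12-fold. *Ppt1* (palmitoyl-protein thioesterase), *Psap* (the precursor of the saposins) and *Asah1* (acid ceramidase) differed by 0.17, 0.07 and 0.01.

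*Gm2a*, the activator that presents the ganglioside GM2 to hexosaminidase, had the widest interval of all 45 genes, from 0.75-fold to 1.70-fold. It read 11.59, 11.91, 12.54 and 12.70 in the controls and 11.93, 12.12, 12.65 and 12.75 with Ac-LDL. The samples of slide 2 were all above those of slide 1 in both groups, and within each numbered pair the Ac-LDL sample was the higher. The mean difference was 0.18, and it became -0.02 without control replicate 1.

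*Lgmn* and *Tpp1* are the peptidases of the set. Legumain, the product of *Lgmn*, cleaves after asparagine, and *Tpp1* encodes a tripeptidyl peptidase. The *Lgmn* probe lies at chr12:103633874-103633923 on the minus strand, in the unnamed build of the annotation.

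Lgmn ILMN_2597868, bases 11 to 40: ctgctaccaggaggctgtaacccacttccg

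It read 12.98, 13.19, 13.39 and 13.38 in the controls and 13.48, 13.44, 13.80 and 13.65 with Ac-LDL. All 4 Ac-LDL samples were above all 4 controls, by a narrow margin between control 3 and Ac-LDL 2, and the samples of slide 2 were higher than those of slide 1 in each group. The difference of 0.36 had a standard error of 0.12 and was 0.38 within slide 1 and 0.34 within slide 2. The unadjusted p was 0.0163, while the limma adjusted p was 0.841 without a block, 0.132 when replicates were blocked and 0.125 when slides were.

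*Tpp1* read 8.81, 8.95, 9.67 and 9.59 in the controls and 9.32, 9.32, 9.51 and 9.77 with Ac-LDL. The groups overlapped, with the lowest readings in the controls of slide 1. The difference was 0.22 with a standard error of 0.20, and it was 0.44 within slide 1, 0.01 within slide 2 and 0.08 without control replicate 1.

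**Figure D2:**
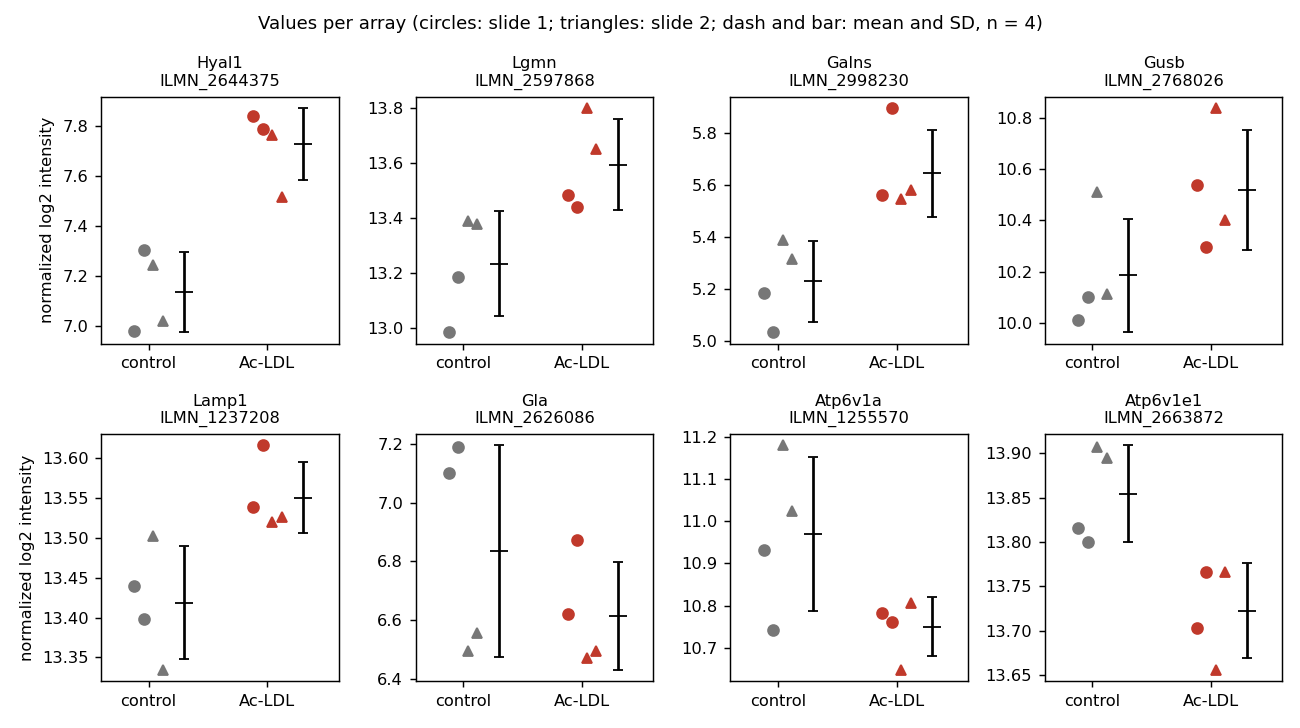
Normalized log2 intensity (y axis, a separate range for each panel) of 8 member probes in the 4 control and 4 Ac-LDL samples, with circles for slide 1, triangles for slide 2 and the mean with SD beside each group. *Hyal1*, *Lgmn*, *Lamp1* and the *Galns* probe show no overlap with Ac-LDL higher, *Atp6v1e1* shows none with Ac-LDL lower, and the groups of *Gusb*, *Gla* and *Atp6v1a* meet or overlap.

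The 4 membrane proteins differed by 0.03 to 0.13 between the groups. *Lamp1*, one of the most abundant glycoproteins of the lysosomal membrane, read 13.44, 13.40, 13.50 and 13.33 in the controls and 13.54, 13.62, 13.52 and 13.53 with Ac-LDL. The groups did not overlap, but the gap between control 3 and Ac-LDL 3 was small beside the range of the controls. Its difference was 0.13 with a standard error of 0.08, an exact two-sided permutation p of 0.0286 and a limma adjusted p of 0.961. *Lamp2*, its partner with isoforms in chaperone-mediated autophagy, was tested with 6 probes whose differences all lay between 0.02 and 0.05. The brightest read 12.39, 12.34, 12.35 and 12.51 against 12.50, 12.34, 12.36 and 12.53, values that overlapped throughout, with a 95% interval of 0.890-fold to 1.18-fold. The tetraspanin *Cd63* and the cation channel *Mcoln1* differed by 0.04 and 0.08. The class median was 0.06, and with median scaling it was -0.04 and the *Lamp2* difference -0.06, where the median of all probes was -0.09.

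The 17 tested pump genes spanned -0.22 to 0.21. In the ATP-hydrolysing V1 sector 2 of 9 genes were higher and 7 lower, with a median of -0.09. In the proton-carrying V0 sector 2 of 6 were higher and 4 lower, with a median of -0.06, and both accessory genes, *Atp6ap1* and *Atp6ap2*, were higher, at 0.18 and 0.03. The median over the pump was -0.07 within slide 1, 0.05 within slide 2 and -0.17 with median scaling. Every one of the 17 genes had its 95% interval within a 1.5-fold change.

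*Atp6v1a*, the catalytic subunit that binds ATP, had the lowest difference of the pump, -0.22 with a standard error of 0.11 and a limma adjusted p of 0.949. It read 10.93, 10.74, 11.18 and 11.02 in the controls and 10.78, 10.76, 10.65 and 10.81 with Ac-LDL. Control sample 2 fell among the Ac-LDL samples and the other 3 controls lay above them. The difference was -0.07 within slide 1 and -0.37 within slide 2. *Atp6v1e1*, a subunit of the peripheral stalk, read 13.82, 13.80, 13.91 and 13.89 against 13.70, 13.77, 13.66 and 13.77. All Ac-LDL samples lay below all controls, although the whole range covered only a small change, with a difference of -0.13 and a standard error of 0.08. The exact two-sided permutation p was 0.0286, the smallest that test can give. The limma p was 0.145 unadjusted and 0.961 adjusted.

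At the other end of the pump stood *Atp6v1g2*, a G subunit known mostly from neurons, with a difference of 0.21 and a standard error of 0.12. This dim probe read 5.45, 5.72, 5.99 and 5.75 in the controls and 5.96, 5.79, 5.99 and 6.01 with Ac-LDL. The groups overlapped, with control 1 standing lowest. *Atp6v0a1*, an isoform of the large membrane subunit, read 11.26, 11.36, 11.47 and 11.27 against 11.64, 11.54, 11.63 and 11.37. Only Ac-LDL sample 4 fell inside the range of the controls, and the difference was 0.21 with a standard error of 0.10. Its limma adjusted p was 0.949 without a block and 0.329 with the replicate block, where the unadjusted p was 0.0377. *Atp6v0d1*, the subunit that joins the sectors, read 12.51, 12.46, 12.05 and 11.87 against 12.26, 12.16, 12.00 and 12.02. Its difference was -0.28 within slide 1 and 0.05 within slide 2, so that the pooled -0.11 rested on the first slide. The remaining V1 genes *Atp6v1c1*, *Atp6v1h*, *Atp6v1d*, *Atp6v1b1*, *Atp6v1g1* and *Atp6v1b2* ran from -0.16 to 0.07, and the V0 genes *Atp6v0b*, *Atp6v0e*, *Atp6v0a2* and *Atp6v0e2* from -0.13 to 0.11.

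Slide and treatment were compared on the same samples. Each slide held its own replicates, so that a difference between slides and one between replicate preparations cannot be told apart. The slides differed at a limma adjusted p under 0.05 for 20 of the 74 member probes, 27% beside 23.6% of all tested probes, and for 14 of the 45 genes, 7 in each direction. Gene by gene the slide difference was larger than the treatment difference for 27 of the 45. *Gm2a* was 1.71-fold higher on slide 2, and *Tpp1*, *Sgsh*, *Man2b1* and *Naglu* were higher there by 0.53, 0.51, 0.44 and 0.39 on the log2 scale. *Atp6v0e2*, *Gaa* and *Gla* differed by -0.50, -0.47 and -0.44. Of the 7 genes called higher on slide 2 all were hydrolases or activators, and of the 7 called lower 4 were pump genes. Both groups had 2 samples on each slide, so that the slide difference does not enter the mean difference between treatments, but it widens the intervals of the fit without a block. The median standard error over the member probes was 0.13 in that fit and 0.09 with the replicate block. Whether the effect of Ac-LDL itself differed between the slides was tested by an interaction term. Its unadjusted p was under 0.05 for 7 member probes, 9.46% beside 8.38% of all probes, and none was called after adjustment.

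**Figure D3:**
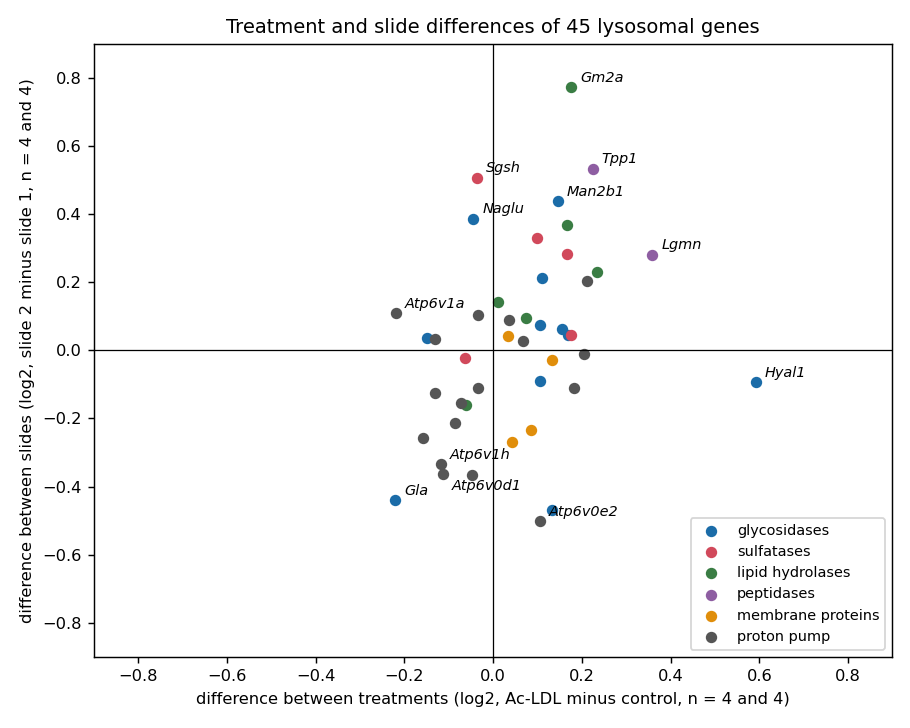
Difference between treatments (x axis) and difference between slides (y axis), both in log2 units over 8 samples, for the 45 genes coloured by class. The slide differences reach 0.77 for *Gm2a*, whereas the treatment differences lie within 0.25 of 0 for all genes but *Hyal1* and *Lgmn*.

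The genes read by several probes give a view of how far a difference depends on the probe. There were 18 such genes with 47 tested probes. In 11 genes all probes gave the same direction and in 7 they did not, namely *Glb1*, *Idua*, *Ids*, *Smpd1*, *Cd63*, *Atp6v0a2* and *Atp6v0d1*. The widest split among these was in *Idua*, at 0.11 for the brighter probe and -0.22 for the dimmer one. The brighter *Ids* probe gave 0.10 and the dimmer one -0.16, and for *Glb1* the values were 0.11 and -0.08. For *Asah1* the brighter probe gave 0.01 and the dimmer one 0.31, with standard errors of 0.11 and 0.20. *Psap* and *Man2b1* probes agreed closely, at 0.07 and 0.07 and at 0.15 and 0.14. The median standard error of the beads behind one reading was 3.2% of the signal over the tested member probes, and the median SD between arrays of one group was 0.19 on the log2 scale.

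**Figure D4:**
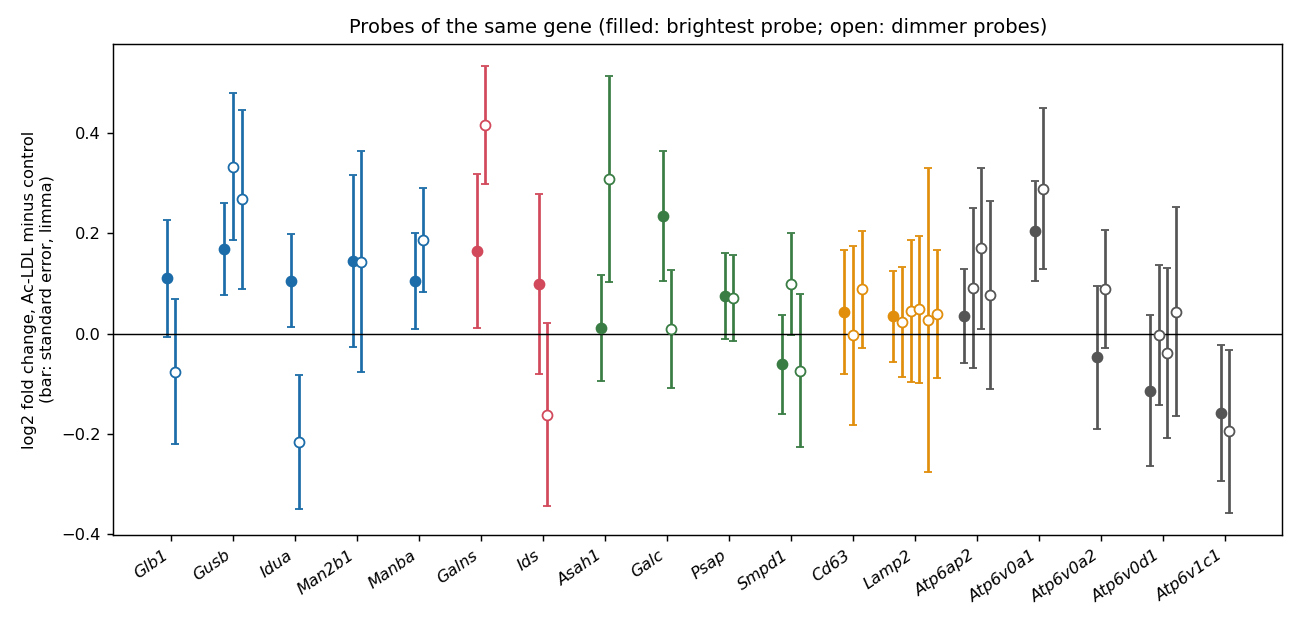
Log2 fold change of Ac-LDL over control (y axis, with the standard error of limma's model) for each tested probe of the 18 genes with several, filled for the brightest probe and open for the others. The 6 *Lamp2* probes lie together just above 0, while those of *Idua*, *Ids* and *Glb1* fall on both sides of it. The dimmer probes of the latter genes are near the detection limit.

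The label is copied from the 3′ end of the RNA, and the balance of upstream and downstream probes of one transcript shows how alike the samples were in this respect. Over 1430 transcripts with tested probes at least 500 bases apart, the median of upstream minus downstream probe, taken relative to the mean of all arrays, was 0.03, 0.04, -0.05 and -0.10 in controls 1 to 4 and 0.07, -0.05, 0.15 and -0.07 in Ac-LDL samples 1 to 4. Ac-LDL sample 3 was the highest and control sample 4 the lowest, and the groups overlapped. Of 9 member transcripts with such pairs the upstream probe had the higher difference in 6, among them *Gusb* with 0.27 upstream and 0.17 downstream, and the lower one in 3. The part of this balance in the members' differences was not tested.

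Promoters of the members were searched for the palindromic E-box CACGTG and its extensions GTCACGTG, the core of the motif that TFEB is known to bind, and TCACGTGA, on both strands, in the 250 bases before and 50 bases after each RefSeq start (GRCm38.p6). The E-box is contained in both longer motifs. Of 46 promoters for 43 member genes 28.3% held CACGTG, beside 7.15% of all 32851 promoters, 21.7% held GTCACGTG, beside 2.25%, and 10.9% held TCACGTGA, beside 0.974%. GTCACGTG was found in the promoters of 10 genes of 5 classes, *Arsa*, *Atp6v0b*, *Atp6v0d1*, *Gla*, *Glb1*, *Lamp1*, *Lgmn*, *Mcoln1*, *Naglu* and *Sgsh*, and in none of 5 lipid hydrolase genes. The following windows of 30 bases show it in genes at both ends of the treatment differences, with the match in capitals on the strand of the gene.

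Lgmn, chr12:102439124-102439153, minus strand: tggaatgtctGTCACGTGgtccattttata

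Lamp1, chr8:13159121-13159150, plus strand: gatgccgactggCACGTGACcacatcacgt

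Glb1, chr9:114401018-114401047, plus strand: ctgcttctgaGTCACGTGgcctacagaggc

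Atp6v0d1, chr8:105566050-105566079, minus strand: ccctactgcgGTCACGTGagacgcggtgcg

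Gla, chrX:134601182-134601211, minus strand: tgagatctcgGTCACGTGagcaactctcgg

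In *Lamp1* the same motif reads as its reverse complement. The 10 genes with GTCACGTG had a median treatment difference of -0.04, with 4 higher and 6 lower, and the 28 tested genes with a promoter entry but without the motif had a median of 0.11, with 21 higher and 7 lower. For CACGTG the medians were -0.04 over 13 genes and 0.11 over 25. *Lgmn* at 0.36 and *Gla* at -0.22 both carry the motif, and *Hyal1* at 0.59 does not. The difference between these medians was not tested, and a match names letters in a window, not a bound site.

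Other lysosomal genes, from a list that leaves out the members and the cathepsins, were read from the same fit. Of 72 symbols listed 55 were on the array and 47 genes were tested, 31 higher and 16 lower, with a median difference of 0.04. None of their 79 probes was called in the fit without a block or with the replicate or slide block. Of all tested probes 0.0409%, 0.444% and 0.321% were called in these fits. Without a block 4 of the 79 had an unadjusted limma p under 0.05, beside 5.2% of all tested probes. Among 14 further genes listed as hydrolases 12 were higher and 2 lower, with a median of 0.08. All 7 genes of enzyme modification and mannose 6-phosphate sorting were higher, with a median of 0.06. The 20 further genes listed with the membrane were split into 9 higher and 11 lower. For the 6 genes of nutrient signalling at the lysosome, such as the mTORC1 pathway, the split was 3 and 3. Among the lower genes of the membrane list was *Tcirg1*, which encodes a further V0 subunit of the pump that the symbol rule left out of the members. Its tested probes, from the brightest to the dimmest, differed by -0.14, -0.05, -0.16 and -0.22.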

How the data were processed

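RNA of 4 Ac-LDL and 4 mock-treated samples was hybridised to Illumina Mouse WG-6 v2.0 bead arrays. The authors deposited mean bead intensities that were neither background-corrected nor normalized, a detection p-value that ranks each probe against negative controls, and bead counts and errors, exported per the labels from BeadStudio. The values the authors normalized in GeneSpring GX were not used here.

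Background correction and normalization of the intensities used limma 3.58.1 under R 4.3.3 (neqc: normexp with negative controls inferred from the detection p-values, offset 16, quantile normalization, log2). The probes detected at 0.05 on 4 or more of 8 arrays, 17122 of 45281, were fitted together by lmFit and eBayes without a block, since the study's test was unpaired, and p-values were Benjamini-Hochberg adjusted over all of them. A gene was given by its brightest tested probe. The procedure was tested on simulated data. The number of arrays limits the precision.

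Members and gene lists were chosen with earlier results of these data known. Per-array values are given for member probes called in any fit, genes with an unadjusted p under 0.05, and the highest and lowest gene of each class. Probes with an unadjusted p under 0.05 in the fit without a block are given too where the gene's brightest probe missed that threshold. The brightest *Gusb* and *Galns* probes, the third *Gusb* probe, *Atp6v1e1*, *Atp6v0a1*, *Atp6v0d1*, *Neu1*, *Gm2a*, *Man2b1* and *Hexa* were added after their values were seen. Symbols are those of the array's annotation, and 79 of 100 member probes matched the RefSeq gene table by gene ID. Promoters are from RefSeq, with entries for 43 of 51 genes.

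Same-numbered arrays of both groups deviated together from their group means, with correlations across probes of 0.579, 0.479, 0.468 and 0.629 for replicates 1 to 4. Between differently numbered arrays of one slide they were 0.343, 0.429, 0.447 and 0.188, so that much of this goes with the slide. Every same-numbered pair was above 0.1, but so was every differently numbered pair of one slide. Each same-numbered value was above each differently numbered one of a slide, at the closest 0.468 and 0.447. Whether that excess comes from pairing by number was not tested. That the numbers pair the samples was assumed, and the replicate block was run as an alternative on that assumption. The single member call, *Hyal1*, was made only with that block. No statement in the labels gives the pairing. Slides were read from the array positions in the labels. Other alternatives were the slide block, within-slide differences, other offsets, scaling, filters and priors, the methods' t-test and leaving out each array.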

Additional observations from a re-analysis of the deposited data

Results flagged for a closer look

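In 48 groups of 4 samples, from 24 member probes that include *Man2b1*, *Hexa* and the third *Gusb* probe beside those given sample by sample, the highest or lowest sample was examined for its distance from the others, and 3 stood apart, where 2.4 are given by chance at 5%. The *Galns* probe ILMN_2998230 read 5.90 in Ac-LDL sample 2 and between 5.54 and 5.58 in the other Ac-LDL samples. *Arsb* read 8.82 in Ac-LDL sample 3 and 8.95 in each of the others. *Galc* read 7.58 in Ac-LDL sample 3 and between 7.27 and 7.32 in the others. No explanation of these readings was tested.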

How the results depend on the processing

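Without a block 7 probes were called over the whole array. The count was 76 with the replicate block, 55 with the slide block, 26 with median scaling, 16 with a trended and robust prior, 0 without the detection filter and 0 by the methods' t-test, which gave an unadjusted p under 0.05 for 1039 probes, and it ran from 0 to 15 when single arrays were left out (0 without Ac-LDL replicate 1, 2 or 3 or control replicate 4, 1 without Ac-LDL replicate 4 and 15 without control replicate 2). Member probes called numbered 0 in every alternative except the replicate block, where *Hyal1* alone passed at an adjusted p of 0.0415. The replicate block changed no other call among the named members and other lysosomal genes. The adjusted p of *Hyal1* ran from 0.0415 to 0.554 over its alternatives. The count of 5 member probes whose groups did not overlap ran from 5 to 10 when arrays were left out, with 10 without control replicate 3, 9 without control replicate 4 and 9 without Ac-LDL replicate 4. With fewer arrays in a group non-overlap comes more easily by chance, and the share over all probes is not given for these settings. Within slide 2 the class medians moved to 0.0282 for glycosidases, -0.119 for sulfatases and 0.0489 for the pump. With median scaling they moved to -0.0108 for glycosidases, -0.0406 for membrane proteins and -0.170 for the pump, where all probes had a median of -0.09. Leaving out single arrays moved the medians between 0.0447 and 0.124 for glycosidases, -0.0191 and 0.224 for sulfatases, 0.0151 and 0.173 for lipid hydrolases, 0.176 and 0.387 for peptidases, 0.0340 and 0.126 for membrane proteins, and -0.101 and -0.0109 for the pump, with control replicate 1 left out giving the lowest value for glycosidases, lipid hydrolases and peptidases. *Lamp2* turned to -0.0629 with median scaling, and *Gm2a* ran from -0.0233 without control replicate 1 to 0.346 without control replicate 4. The cause of these moves was not tested. With 4 arrays a group, the 95% intervals of single genes reached 0.19 to 0.59 on the log2 scale to either side of the estimate, and the probes of the 6 genes not tested gave no level.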
